A study of Mus musculus with 27 samples.

Results

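The earliest sampled time after a serum shock, 12 h, was compared with the next sampled times, 18 h and 24 h, in 9 of the 27 libraries of a DNA methylation time course. The 9 libraries were chosen by their labels: 3 of 12 h, 3 of 18 h and 3 of 24 h, the last 6 forming the comparison group. All were made from C2C12 cells, an established mouse myoblast line without a stated genetic change, that had been grown to near confluence and differentiated in medium with 2% horse serum. All received 50% horse serum for 2 h and differed only in the hours that followed; unshocked cells were not analysed here, so every group carries the shock. The whole course ran in steps of 6 h from 12 h to 60 h, with 3 replicates a time. Whether replicates were separate cultures is not stated in the labels, and the p-values therefore rest on a spread between libraries that may be technical. The table holds methylation and no expression, so the muscle identity of the cells was not checked by expressed markers.

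Methylation of cytosine in CpG dinucleotides is written by DNA methyltransferases, kept through cell division, and removed by oxidation or by dilution. It is commonly low at active gene starts and high in silenced germline genes, while imprinted genes carry it on 1 parental copy. A serum shock sets off immediate-early genes such as Fos and Egr1 and starts the circadian clocks of cultured cells in a common phase. The question here was whether methylation at the first sampled time, nearest the shock, stood apart from the times that followed.

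Methylation had been measured by reduced representation bisulfite sequencing, which reads CpG-rich restriction fragments. A level is the percentage of methylated cytosine at a position. Of 917726 autosomal positions, 875819 had a level in all 9 libraries. They were joined, with gaps of at most 100 bp, into 23370 runs with a median of 23 positions and a median length of 244 bp. The mean level of a run is the unit of all comparisons. Of the runs, 14016 had a mean level under 10%, 8705 one of 10% to 90% and 649 one over 90%. Reads behind a level are unknown. Within runs of middle level, 63311 pairs of positions lay 1 bp apart, and 99.3% to 99.7% of them differed by less than 1 point in each of the 9 libraries. Such pairs include the C and the G of the same CG, whose levels are thus not separate observations. How levels run from a CG to the next was not tested by them. The positions of a run were not counted as separate observations. No label states whether the levels were smoothed before deposit. Coordinates are those of mm10, counted from 1: in gene start windows, 100615 positions lay on the C and 100595 on the G of a CG of the reference, and 39 elsewhere.

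No run passed for 12 h against 18 h and 24 h. With limma and replicate number as a block, 0 of 23370 runs (0.0%) had an adjusted p under 0.05, and the smallest adjusted p was 0.232. An unadjusted p under 0.05 was found at 1198 runs (5.13%), of which 600 (2.57%) were higher and 598 (2.56%) lower at 12 h. The median difference over all runs was -0.156 points and the median size of a difference 1.40 points. The 3 libraries of 12 h lay wholly above the 6 later ones at 246 runs (1.05%) and wholly below them at 292 (1.25%). A difference over 10 points was found at 980 runs (4.19%). The upper 95% limit of the size of the difference lay under 10 points at 89.0% of runs of low level but at 35.9% of runs of middle level.

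**Figure D1:**
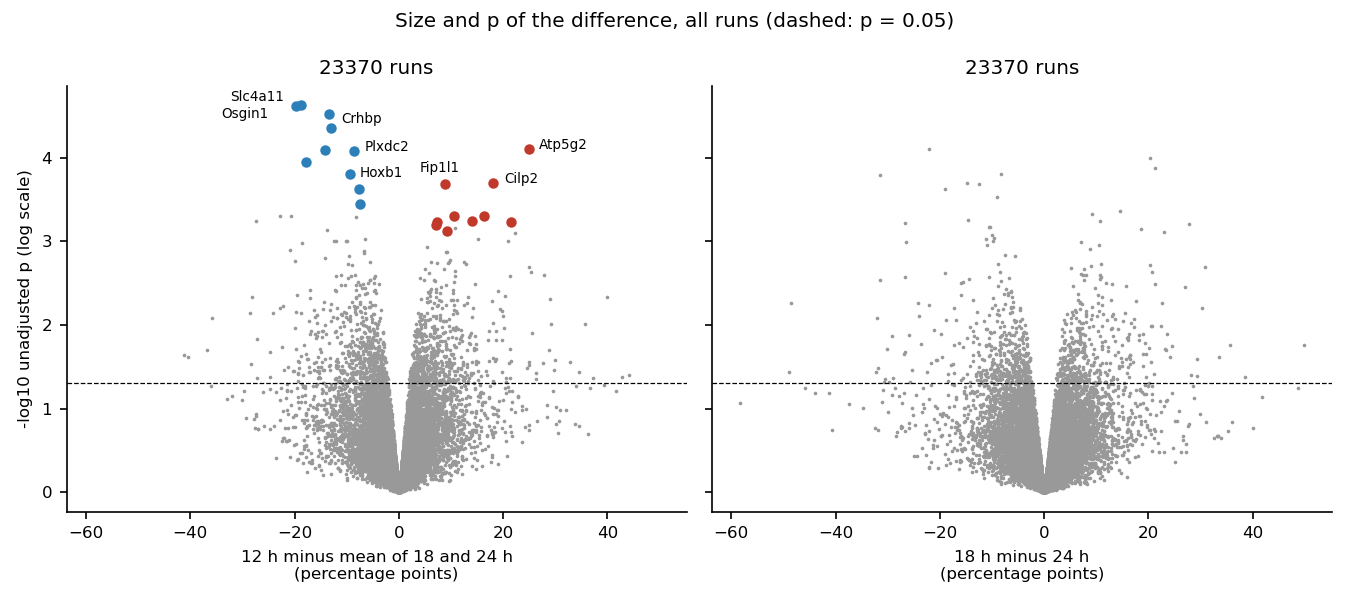
Each point is 1 of 23370 runs; the x axis is the difference in level in percentage points and the y axis the size of the unadjusted p as -log10. The left panel shows 12 h minus the mean of 18 h and 24 h, with the 10 smallest p of runs at named genes in each direction in red (higher at 12 h) and blue (lower at 12 h). The right panel shows 18 h minus 24 h, where 842 runs had an unadjusted p under 0.05 against 1198 on the left. The left compares 3 with 6 libraries and the right 3 with 3, so these counts are not like for like. With 3 against 3 libraries, 12 h had 1131 such runs against 18 h and 1039 against 24 h.

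No difference in mean level between 12 h and later was detected. The mean over kept positions was 11.1%, 12.0% and 11.0% in replicates 1, 2 and 3 of 12 h, 11.2%, 11.7% and 11.5% at 18 h and 11.1%, 11.4% and 11.8% at 24 h. The range of the 12 h libraries thus enclosed all 6 later ones. The difference was -0.0855 points (11.4% ± 0.517, SD, n = 3, against 11.4% ± 0.284, n = 6; exact permutation test within replicate number, two-sided, p = 0.704, smallest possible 0.037). Its sign turned without replicate 1 (0.0415 points) or replicate 3 (0.0849 points) of 12 h. In runs of middle level the mean was 39.1% ± 1.04 at 12 h against 39.5% ± 0.617 later, and in runs of low level 3.49% ± 0.544 against 3.56% ± 0.275 (exact permutation tests, adjusted p = 0.593 and 0.704 over 4 values). In runs of high level it was 94.6% ± 0.489 against 94.4% ± 0.242 (exact permutation test, adjusted p = 0.593).

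Replicate 3 of 12 h stood furthest apart from the others of its time in pair correlations and in missing values. In mean level and in the share of positions at 0 it was replicate 2. The median SD of a middle-level run was 5.62 points at 12 h, 4.85 points at 18 h and 4.53 points at 24 h. Runs are not replicates of each other; over these 8705 a pair of libraries had a mean Pearson correlation of 0.851 within 12 h (0.879 for replicates 1 and 2, and 0.824 and 0.849 for their pairs with replicate 3), 0.881 within 18 h and 0.900 within 24 h. Pairs of 12 h with 18 h had a mean of 0.866, pairs of 12 h with 24 h one of 0.876 and pairs of 18 h with 24 h one of 0.892. Positions at exactly 0 made up 23.9%, 10.6% and 26.5% of a 12 h library, against 15.3%, 14.3% and 18.8% at 18 h and 22.2%, 11.8% and 5.79% at 24 h (20.3% ± 8.53 against 14.7% ± 5.69; exact permutation test, adjusted p = 0.593). Replicate 3 of 12 h also lacked the most values, 21290 autosomal positions, against 2154 to 11482 in the other 8 libraries. The part of these differences in the run comparisons was not tested.

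**Figure D2:**
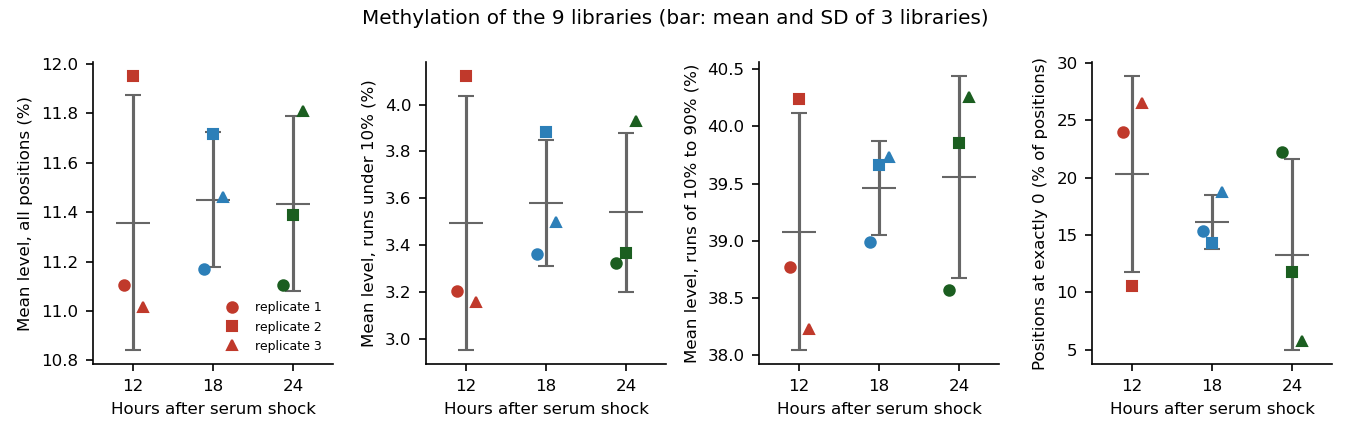
Each point is 1 library, by hours after the serum shock, with the mean and SD of 3 libraries as a bar; the panels show the mean level in percent over all positions, over low runs and over middle runs, and the share of positions at exactly 0. Replicates 1 and 3 of 12 h lie low in mean level and high in the share at 0, and replicate 2 of 12 h lies the other way.

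Against 18 h alone, 1131 runs (4.84%) had an unadjusted p under 0.05, 523 (2.24%) higher and 608 (2.6%) lower at 12 h. Against 24 h alone there were 1039 (4.45%), 455 (1.95%) higher and 584 (2.5%) lower. With limma 0 of 23370 runs passed in either (0.0%). These comparisons share the 12 h libraries. Between 18 h and 24 h, without any 12 h library, 842 runs (3.6%) had an unadjusted p under 0.05, 399 (1.71%) higher and 443 (1.9%) lower at 18 h, and 0 passed (0.0%, limma). The median size of a difference was 1.60 points for 12 h against 18 h, 1.54 for 12 h against 24 h and 1.46 for 18 h against 24 h.

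Of the 8 named runs that overlap a gene start window, 4 are shown first with their reference sequence, so that their measured CpGs can be seen. Each window holds 250 bases before and 50 after the start of a RefSeq transcript (GRCm38.p6, the assembly of mm10), written 5′ to 3′ on the strand of the gene. Capitals mark each CG with at least 1 position measured in all 9 libraries.
Acta1, chr8:123894726-123895025, minus strand: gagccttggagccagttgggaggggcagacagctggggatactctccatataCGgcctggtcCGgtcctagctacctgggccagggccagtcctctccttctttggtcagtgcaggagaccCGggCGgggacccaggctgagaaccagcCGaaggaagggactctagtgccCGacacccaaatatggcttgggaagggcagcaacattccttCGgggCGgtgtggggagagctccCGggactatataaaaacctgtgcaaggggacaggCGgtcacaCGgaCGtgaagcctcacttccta
Parp16, chr9:65214440-65214739, plus strand: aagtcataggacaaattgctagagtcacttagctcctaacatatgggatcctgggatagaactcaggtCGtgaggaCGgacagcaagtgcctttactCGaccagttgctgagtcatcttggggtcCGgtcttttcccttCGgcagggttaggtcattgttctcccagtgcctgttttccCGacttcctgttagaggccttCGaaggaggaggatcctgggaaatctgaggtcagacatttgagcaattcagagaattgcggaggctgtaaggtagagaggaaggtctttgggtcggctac
Magi2, chr5:19226796-19227095, plus strand: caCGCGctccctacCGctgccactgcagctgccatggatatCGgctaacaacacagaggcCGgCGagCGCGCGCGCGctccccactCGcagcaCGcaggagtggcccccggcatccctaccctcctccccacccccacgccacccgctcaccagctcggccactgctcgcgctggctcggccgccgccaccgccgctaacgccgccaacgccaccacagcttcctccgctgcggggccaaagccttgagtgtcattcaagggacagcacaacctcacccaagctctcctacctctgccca
Grb10, chr11:12037371-12037670, minus strand: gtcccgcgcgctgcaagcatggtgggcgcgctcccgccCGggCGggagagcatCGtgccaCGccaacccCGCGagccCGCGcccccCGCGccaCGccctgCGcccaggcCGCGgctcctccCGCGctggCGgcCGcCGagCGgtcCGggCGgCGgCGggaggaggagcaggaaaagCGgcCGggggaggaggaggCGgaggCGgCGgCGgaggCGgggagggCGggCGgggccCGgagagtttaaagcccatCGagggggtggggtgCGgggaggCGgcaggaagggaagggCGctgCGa
All 12 CGs of the Acta1 window were measured, 7 of 9 in that of Parp16, 13 of 29 in that of Magi2 and 39 of 45 in that of Grb10. The window of Grb10 thus holds the most CGs of the 4.

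Acta1 encodes skeletal muscle actin, a target of serum response factor in muscle. The run over the window (chr8:123894721-123895027, 18 positions, also overlapping Gm29773) was at 8.61%, 5.52% and 3.85% in the 12 h libraries, 8.62%, 10.3% and 8.64% at 18 h and 10.2%, 13.2% and 15.3% at 24 h. The highest 12 h library thus lay just under the lowest later one. The difference was -5.05 points (SE 1.73, limma adjusted p = 0.950), and the 24 h mean was 12.9% ± 2.59 against 5.99% ± 2.42 at 12 h, each over 3 libraries. From 30 h to 60 h the 18 libraries ranged from 4.02% to 15.5%, with a median of 11.5%.

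Parp16, a tail-anchored ADP-ribosyltransferase of the endoplasmic reticulum, had all 8 positions of its run (chr9:65214509-65214640) in its start window. Levels were 27.5%, 44.5% and 25% at 12 h, 43.8%, 61.5% and 45.8% at 18 h and 35.4%, 53.3% and 35.1% at 24 h. Replicate 2 was the highest at each time, and the groups overlapped. Each replicate number was lowest at 12 h, a pattern that choosing runs by a fit with the replicate block favours. The difference was -13.5 points (SE 1.05, limma adjusted p = 0.232, and 0.951 without the replicate block). At 36 h against 42 h and 48 h, the same hours of the next day, it was 16 points (SE 5.73, limma unadjusted p = 0.0341), in the other direction.

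Magi2, a scaffold protein of cell junctions and synapses, had the largest negative difference among the named runs, -35.8 points (SE 8.83, limma adjusted p = 0.902), in a run of 18 positions (chr5:19226779-19226889). The 12 h libraries were at 5.64%, 41.5% and 42.4%, against 52.7% to 75% in the 6 later ones. The groups did not overlap, but replicate 1 of 12 h lay far under the other two, and without it the run of Magi2 differed by -23.2 points. The run had no position with a value in all 27 libraries, so later times were not compared.

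Grb10, an imprinted gene whose product restrains insulin and growth factor signalling, had a run of 146 positions over its start (chr11:12037001-12037996). It was at 55.6%, 61.8% and 67.3% at 12 h, 51.9%, 53.6% and 59.8% at 18 h and 51.8%, 57.2% and 59.1% at 24 h. The groups overlapped through replicate 1 of 12 h. The difference was 5.99 points (SE 1.24, limma adjusted p = 0.889). In the printed window alone the means were 42.9% ± 4.13 at 12 h, 37.0% ± 8.23 at 18 h and 42.7% ± 1.54 at 24 h, so that 12 h and 24 h hardly differed there. The run was also cut into 3 parts of equal length, and the level was 70.7% ± 12.4 at 12 h against 62.8% ± 7.99 later at the lower coordinates, 45.8% ± 3.29 against 42.4% ± 5.48 in the middle and 74.4% ± 5.47 against 67.6% ± 3.86 at the upper ones. The next day the run differed by -2.8 points (SE 1.06, limma unadjusted p = 0.042).

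**Figure D3:**
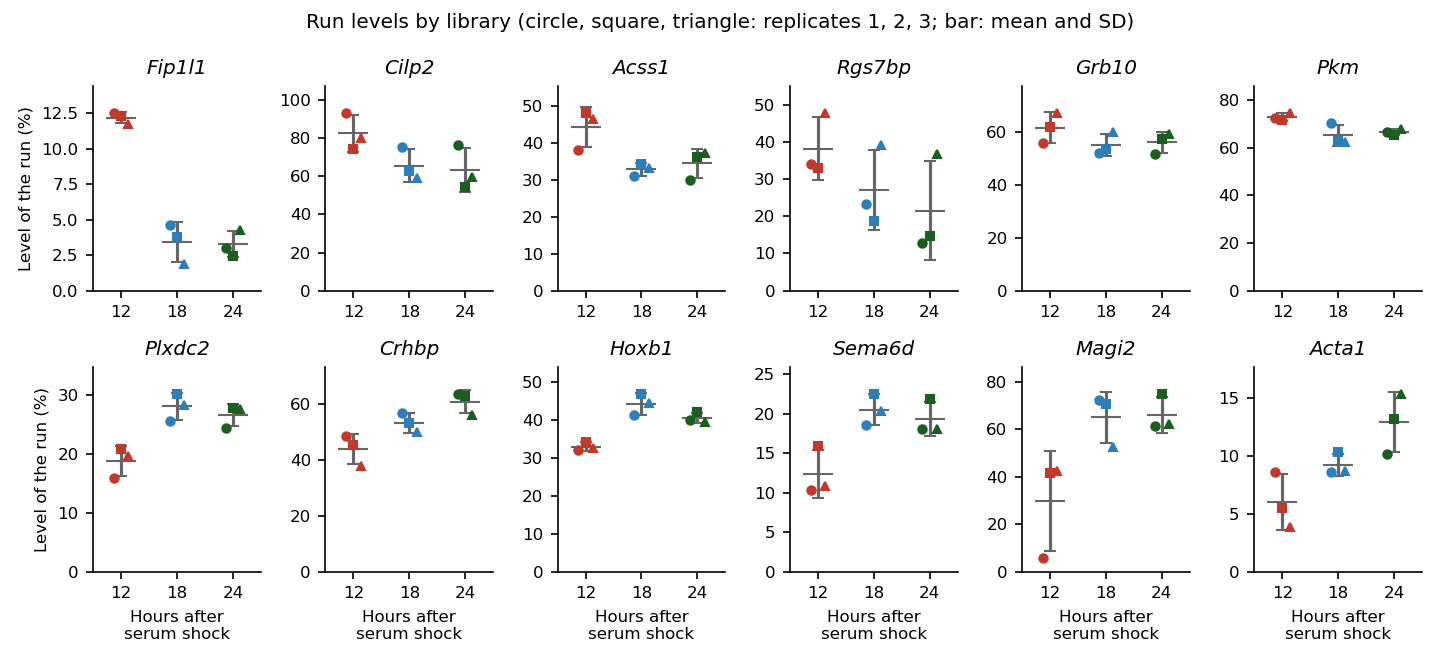
Each panel is 1 run, with its mean level in percent in each library (circle, square and triangle for replicates 1, 2 and 3) by hours after the serum shock, and the mean and SD of 3 libraries as a bar. The 12 h libraries of Fip1l1 lie between 11.7% and 12.5% and all later ones under 5%, while in Rgs7bp and Grb10 the groups overlap.

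Runs named by their p were the 10 smallest that were higher and the 10 smallest that were lower at 12 h. None passed, and these differences describe how the runs were picked. They lay in 16 genes and near 4, and 12 of the 20 held fewer than 10 positions. Among the higher runs, Fip1l1, a subunit of the mRNA cleavage and polyadenylation complex, had the most positions, 45 (chr5:74535579-74535932, within the gene, 88 bp after a RefSeq start). Its levels were 12.5%, 12.3% and 11.7% at 12 h, 4.62%, 3.75% and 1.88% at 18 h and 3.03%, 2.47% and 4.26% at 24 h. The 12 h libraries lay close together and above all later ones, by 8.87 points (SE 1.00, limma adjusted p = 0.439). The difference sat at 1 end: of 3 parts of equal length, the upper-coordinate part (20 positions) was at 23.4% ± 2.17 against 3.86% ± 2.01, and the lower part (16 positions) at 2.22% ± 2.61 against 2.29% ± 2.09. From 30 h to 60 h the run ranged from 1.85% to 19.8%, with a median of 4.50%, so that a later library reached above the 12 h level.

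Atp5g2, a c subunit of mitochondrial ATP synthase, had 5 positions 1861 bp before its start (chr15:102672908-102672981), at 71.6%, 59.8% and 81.2% at 12 h, 59.1%, 46.9% and 59.9% at 18 h and 39.7%, 31.1% and 39.1% at 24 h. Here 18 h lay between 12 h and 24 h, and the groups overlapped by a narrow margin. The difference from the later times was 24.9 points (SE 2.34, limma adjusted p = 0.277). Acss1, which makes acetyl-CoA from acetate in mitochondria, had 11 positions within the gene (chr2:150667651-150667757, also overlapping E130215H24Rik), at 38.2%, 48.2% and 46.6% at 12 h against 30.0% to 37.3% later. Its groups did not overlap, with a difference of 10.6 points (SE 1.43, limma adjusted p = 0.630). From 30 h to 60 h the run of Acss1 ranged from 29.2% to 49.2%, with a median of 39.7%, so that a later library reached above the 12 h levels. The run of Tas1r3, a subunit of the sweet and umami taste receptors, stood at 100%, 80.3% and 100% at 12 h against 65.2% to 77.3% later (7 positions, chr4:155862488-155862610; 21.6 points, SE 3.01).

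Cilp2, a cartilage matrix protein, was at 93.5%, 74.5% and 80.3% at 12 h, 75.3%, 62.9% and 59.0% at 18 h and 76.3%, 54.3% and 59.8% at 24 h (14 positions, chr8:69886228-69886293, also overlapping Gm33746). Replicate 1 was high at each time, and the groups overlapped. Rgs7bp, which anchors regulators of G protein signalling to the membrane, was at 33.9%, 32.9% and 47.9% at 12 h against 12.9% to 39.3% later (11 positions, chr13:105054823-105054967, over its start). There replicate 3 was high at each time. Ptprn, a transmembrane protein of secretory granules, was at 10.1%, 9.99% and 8.06% at 12 h against 0 to 4.5% later (6 positions, chr1:75263967-75264032). Differences were 18.2 points for Cilp2, 14 for Rgs7bp and 7.36 for Ptprn. Skil, a repressor of SMAD signalling (16.4 points), Tmem41b, a lipid scramblase of the endoplasmic reticulum (7.18 points), and the ubiquitin ligase gene Rnf220 (9.33 points) completed the 10, with 5 or 6 positions each.

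Among the lower runs, Plxdc2, a transmembrane protein related to plexins, had the most positions, 72 (chr2:16356398-16357288, within the gene). It was at 15.9%, 20.9% and 19.7% at 12 h, 25.7%, 30.3% and 28.4% at 18 h and 24.5%, 27.8% and 27.7% at 24 h. All 3 libraries of 12 h lay under all 6 later ones. The difference was -8.56 points (SE 0.811, limma adjusted p = 0.277), and the 18 libraries from 30 h to 60 h ranged from 15.9% to 29.4%, with a median of 24.2%. The middle part of the run, at 18.8% ± 5.35 against 31.5% ± 6.71, differed more than the upper part, at 21.4% ± 1.82 against 26.1% ± 5.35.

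Hoxb1, which patterns the hindbrain, had 21 positions within the gene (chr11:96366842-96366994) at 32.1%, 34.3% and 32.8% at 12 h, 41.4%, 47.0% and 44.5% at 18 h and 40.2%, 42.2% and 39.6% at 24 h. All 12 h libraries lay under all those of 18 h and 24 h. From 30 h to 60 h the run ranged from 26.8% to 49.9%, with a median of 42.0%, so that a later library reached under the 12 h levels. The difference of -9.42 points (SE 1.01, limma adjusted p = 0.412) was concentrated in the lower part of the run, at 36.6% ± 1.9 against 52.3% ± 5.41, while the upper part was at 28.1% ± 2.5 against 29.4% ± 5.27. Sema6d, a transmembrane semaphorin that guides axons, was at 10.3%, 15.9% and 10.8% at 12 h against 18.1% to 22.5% later (39 positions, chr2:124090485-124091014). The groups did not overlap, and the difference was -7.56 points (SE 0.88, limma adjusted p = 0.465). From 30 h to 60 h the run of Sema6d ranged from 14.7% to 30.0%, with a median of 18.4%.

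Crhbp, which binds and inactivates corticotropin-releasing hormone, was at 48.3%, 45.3% and 37.8% at 12 h, 56.6%, 53.0% and 49.7% at 18 h and 63.5%, 62.5% and 55.8% at 24 h (25 positions, chr13:95443764-95444043, within the gene). The groups did not overlap, and the mean of 18 h lay between those of 12 h and 24 h. The difference was -13.0 points (SE 1.09, limma adjusted p = 0.256). From 30 h to 60 h the run of Crhbp, over 23 positions measured in all 27 libraries, ranged from 40.8% to 73.7%, with a median of 54.6%. Elovl5, which lengthens polyunsaturated fatty acids, had its means in the same order, with 10.0%, 0 and 10.2% at 12 h, 15.8%, 10.5% and 21.4% at 18 h and 25.6%, 19.5% and 32.2% at 24 h (7 positions, chr9:77918240-77918354). At the same hours of the next day its difference was -25.2 points (SE 7.85, limma unadjusted p = 0.0205), and no other of the 20 had an unadjusted p under 0.05 in the same direction there.

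**Figure D4:**
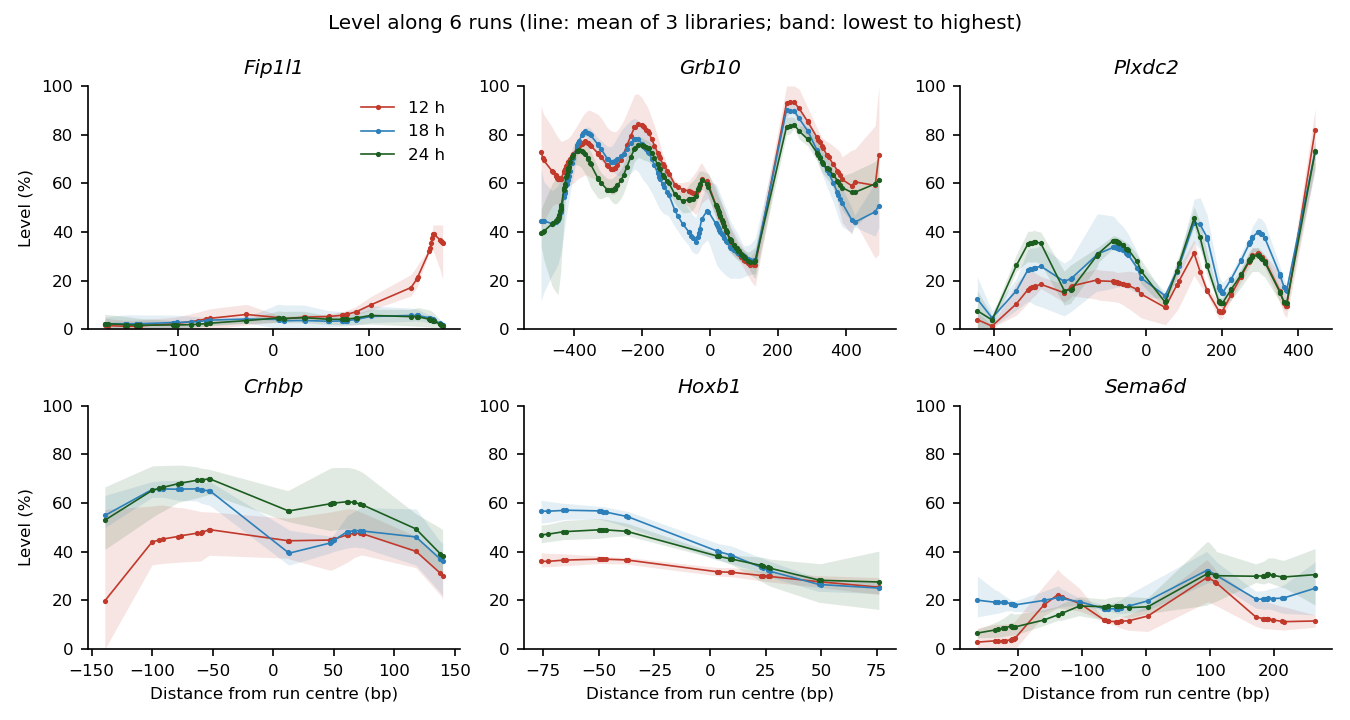
Level in percent along 6 runs by distance from the run's centre in bp, with the mean of 3 libraries at 12 h, 18 h and 24 h as lines and the range of the 3 as bands. In Fip1l1 the 12 h line leaves the others only at 1 end, and in Hoxb1 it lies lower at the other end and meets them at the right.

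The smallest p of all belonged to Slc4a11, a membrane transporter of the bicarbonate transporter family, and to Osgin1, a gene induced by oxidative stress. Slc4a11 was at 24.1%, 17.9% and 25% at 12 h, 47.1%, 40.4% and 41.4% at 18 h and 43.6%, 35.1% and 39.2% at 24 h (8 positions within the gene, chr2:130696615-130696743; -18.8 points, SE 1.40, limma adjusted p = 0.232). Its groups did not overlap, and the next day it differed by -4.74 points (SE 1.96, limma unadjusted p = 0.0557). From 30 h to 60 h the run of Slc4a11 ranged from 19.3% to 56.4%, with a median of 33.7%. Osgin1 was at 77.2%, 80.0% and 82.6% at 12 h, at 100% in all 18 h libraries and at 100%, 100% and 97.4% at 24 h (5 positions within the gene, chr8:119445006-119445086). Its difference was -19.6 points (SE 1.47, limma adjusted p = 0.232). Without the replicate block it was the only run to pass (adjusted p = 0.0184), with a spread of 0 at 18 h. The lower 10 were completed by Ttll8, a tubulin glycylase (-17.8 points, 4 positions), and Dnah11, a motor of cilia (-7.51 points, 8 positions).

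The largest differences among runs with an unadjusted p under 0.01 came from runs of 3 to 18 positions, several with a wide spread at 12 h. Timd4, a macrophage receptor for phosphatidylserine, stood at 31.5%, 40.6% and 78.7% at 12 h against 0 to 23.6% later, a difference of 40.0 points (SE 8.58, limma adjusted p = 0.902, 7 positions). Without replicate 3 of 12 h the run of Timd4 differed by 26.5 points, and from 30 h to 60 h its libraries ranged from 7.38% to 100%. Grhpr, an enzyme of glyoxylate metabolism (35.8 points), the lipocalin gene Obp2a (29.3), the hair keratin gene Krt84 (29.1) and the zinc finger gene Zfp12 (27.8) were the others with higher 12 h levels. Lower were Spon2, a matrix protein (-28.5), Babam1, a subunit of a DNA repair complex (-28.2), Hps6, which acts in lysosome-related organelles (-27.5), and the sulfotransferase gene Chst15 (-24.1). Without replicate 3 of 12 h, where it stood at 0, the run of Chst15 differed by -15.7 points. In Babam1 replicate 2 was the highest at each time, at 45.8% at 12 h, 83.9% at 18 h and 81.1% at 24 h. Replicates 1 and 3 of 12 h were at 0, and so was replicate 1 of 24 h.

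Most runs of serum response genes, 88 of 106, had a mean level under 10%. Over these 106 runs of 31 genes, the median level was 3.32% and the median difference -0.456 points, against 5.80% and -0.156 points over all runs. Over all runs, the share with an unadjusted p under 0.05 differed by level: 2.54% at low, 9.14% at middle and 7.09% at high level. The shares of this and the following lists were not matched for level. None of the 106 runs passed, and 5 (4.72%) had an unadjusted p under 0.05, against 5.13% of all runs. They were those in or within 2000 bp of Dusp6, a phosphatase of ERK kinases (6.82% ± 2.83 at 12 h against 2.62% ± 2.80), of the AP-1 genes Junb (10.2% ± 4.79 against 2.86% ± 2.54) and Fosl1 (4.96% ± 2.49 against 2.47% ± 1.14), of Srf, serum response factor itself (73.9% ± 3.18 against 77.8% ± 1.36), and of Myc (0.537% ± 0.93 against 3.87% ± 1.47; SD, n = 3 against 6). The AP-1 gene Fos was at 3.22%, 0.368% and 1.60% at 12 h over its start, 5.97%, 8.82% and 2.76% at 18 h and 2.35%, 2.01% and 1.40% at 24 h. Its 12 h and 24 h levels overlapped, and the difference was -2.16 points (SE 1.42, limma adjusted p = 0.957). Egr1, a zinc finger factor of the early response, was at 1.66% ± 1.17 against 3.04% ± 1.42.

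Clock genes gave no call either. The list held 58 runs of 23 genes, with a median level of 4.11% and a median difference of 0.0181 points, and 1 run (1.72%, against 5.13% of all runs) had an unadjusted p under 0.05. It was that of Bhlhe41, a repressor of the clock, with 36.4%, 45.1% and 12.5% at 12 h against 0 to 26.7% later (5 positions; 18.3 points, SE 7.28, limma adjusted p = 0.957). Without replicate 2 of 12 h the run of Bhlhe41 differed by 8.27 points. Of the period genes, which repress their own transcription, Per1 was at 3.6% ± 2.17 at 12 h, 1.18% ± 2.04 at 18 h and 8.64% ± 8.04 at 24 h, where replicate 1 alone stood at 17.5%. Per2 was at 0.585% ± 0.376, 3.46% ± 2.9 and 0.961% ± 0.503 at the same times. The output gene Dbp was at 3.25% ± 2.82, 3.44% ± 1.63 and 8.93% ± 4.31, and the repressor gene Nr1d1 at 4.20% ± 2.71, 4.53% ± 3.18 and 1.78% ± 1.61.

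Binding sites with a CpG at their centre were described as well. The E-box CACGTG, the site of the clock activators, occurred in 7.14% of 31363 autosomal start windows (the letters read the same on both strands), and 639 such sites had a measured CpG. Mean levels there at 12 h, 18 h and 24 h, each over 3 libraries with the SD, were 8.84% ± 0.323, 8.80% ± 0.549 and 8.75% ± 0.285. The cAMP response element TGACGTCA, which also reads the same on both strands, occurred in 1.83% of windows, and its 181 measured sites had means of 5.01% ± 0.633, 5.21% ± 0.147 and 4.95% ± 0.371. All positions in start windows averaged 7.32% ± 0.450, 7.41% ± 0.290 and 7.32% ± 0.286. In each of these the times differed by less than the SD of at least 1 of them, and a match of letters describes the windows, not binding.

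Muscle genes followed. Among 33 runs of 16 myogenic regulators, 0 passed and 0 had an unadjusted p under 0.05 (limma); the median level was 5.18% and the median difference -0.171 points. Myod1, which commits cells to muscle, had the smallest p of them, with 51.2%, 43.3% and 56.7% at 12 h, 54.2%, 58.5% and 49.7% at 18 h and 62.1%, 64.6% and 63.6% at 24 h (32 positions, chr7:46376422-46376849). Only the 24 h libraries stood apart from those of 12 h, and the difference from the later times was -8.40 points (SE 3.55, limma adjusted p = 0.957). Without replicate 2 of 12 h the run of Myod1 differed by -3.47 points, and without replicate 3 by -12.6 points. In the lower part of the run, replicate 2 of 12 h was at 39.8% and replicates 1 and 3 at 74.3% and 67.4%. Of 26 runs of 15 muscle structure genes, that of Acta1 alone had an unadjusted p under 0.05 (3.85%, against 5.13% of all runs), and the median difference was -0.918 points.

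In metabolic lists, 6 of 82 glucose runs (7.32%) and 7 of 65 lipid and mitochondrial runs (10.8%) had an unadjusted p under 0.05, against 5.13% of all runs, and none passed. Pkm, which catalyses the last step of glycolysis, had 64 positions 824 bp past the gene (chr9:59680196-59680733, also overlapping Gramd2), at 72.3%, 71.5% and 74.7% at 12 h, 70.3%, 62.7% and 62.5% at 18 h and 66.3%, 65.4% and 67.7% at 24 h. The groups did not overlap (7.03 points, SE 1.9, limma adjusted p = 0.916). Cpt1a, which admits fatty acids to mitochondria, was at 56.7%, 71.0% and 78.2% at 12 h, 467 bp before the gene, against 74.2% to 86.3% later (-11.9 points, SE 2.91). Without replicate 1 of 12 h the run of Cpt1a differed by -7.38 points. Esrra, a nuclear receptor of mitochondrial genes, was at 6.16% ± 0.986 over its start against 2.35% ± 0.647. The lipase gene Pnpla2 was at 13.2% ± 2.71 against 16.9% ± 1.57 and differed in the same direction the next day (-4.6 points, limma unadjusted p = 0.0118). Cox4i1, of cytochrome c oxidase, was at 38.8% ± 4.43 against 31.5% ± 5.78, also in the same direction the next day (5.47 points). Ucp2, a mitochondrial carrier, was at 89.2% ± 4.64 against 95.6% ± 3.87 and differed the other way then (4.77 points). Of the metabolic runs with an unadjusted p under 0.05, only those of Pnpla2, Cox4i1 and Ucp2 had such a p the next day too. They are given here for that, after their values were seen.

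Imprinted, germline and developmental genes hold many runs of middle level. Of all runs of that level, 6.02% had an unadjusted p under 0.05 in a fit of that level alone. In the fit over all runs, used here, 9.14% had such a p. Of 49 imprinted runs (median level 46.7%) 4 did (8.16%): those of Grb10, of Gnas, the stimulatory G protein gene (54.9% ± 5.56 against 43.5% ± 5.67), of H13, host of the retrogene Mcts2 (34.7% ± 5.94 against 45.0% ± 3.39), and of Peg3, a paternally expressed zinc finger gene (78.2% ± 18.6 against 35.4% ± 23.9). The difference at Peg3, 42.7 points, came with the widest spread of these. The next day H13 differed in the same direction (-7.63 points, limma unadjusted p = 0.0251). Gnas (7.06 points) and Peg3 (1.96 points) were then on the same side too, with limma unadjusted p of 0.104 and 0.883, unlike Grb10. Of 31 germline and pluripotency runs (median level 74.7%) 5 did (16.1%), among them Tex19.1, which acts in germ cell defence against transposons. It was at 72.7%, 82.8% and 78.4% at 12 h, 78.6%, 90.9% and 89.7% at 18 h and 85.1%, 89.7% and 91.5% at 24 h (18 positions; -9.60 points, SE 1.62, limma adjusted p = 0.821). The others were Sycp2 of the meiotic chromosome axis (7.20 points), the transposon silencing gene Piwil2 (-4.79), the pluripotency gene Zfp42 (10.6) and the testis bromodomain gene Brdt (-4.47), so that directions were mixed.

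Of 166 runs of 51 Hox and other developmental genes, 11 (6.63%, against 5.13% of all runs) had an unadjusted p under 0.05, 5 higher and 6 lower. The median level of the 166 was 12.4%, and 77 of them were under 10%. Of all runs of low level 2.54% had such a p, and of those of middle level 9.14%. The groups did not overlap at 9 (5.42%), against 2.30% of all runs. Next to Hoxb1, the Hox genes Hoxd10 (30.4% ± 7.68 at 12 h against 51.1% ± 7.21, over its start), Hoxb5 (58.2% ± 4.35 against 47.4% ± 3.71) and Hoxb13 (27.8% ± 9.12 against 7.80% ± 7.05) had the largest differences among those with an unadjusted p under 0.05 and groups apart, and were chosen after their values were seen. Limma adjusted p values were 0.794, 0.889 and 0.902 in that order. The endoderm and heart factor gene Gata6 was at 22.3% ± 5.78 against 32.8% ± 3.38. The next day Hoxb5 differed by -3.14 points, in the other direction, and Hoxd10 by -1.61 points.

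In cell cycle genes (71 runs) 2 runs had an unadjusted p under 0.05 (2.82%, against 5.13% of all runs), those near E2f1, a transcription factor of S phase entry (77.0% ± 3.63 against 71.0% ± 1.75, 364 bp from the gene and overlapping Necab3), and near the cyclin gene Ccnd2 (50.9% ± 2.94 against 43.0% ± 3.31). Of 43 runs of DNA methylation enzymes, readers and related genes, 0 passed and 0 had an unadjusted p under 0.05 (limma), and the median difference was 0.0576 points. The smallest p among them was that of Gadd45a, which has a role in DNA demethylation, at 15.7%, 6.33% and 0 at 12 h against 0 to 4.55% later (7 positions). Without replicate 1 of 12 h the run of Gadd45a differed by 1.04 points instead of 5.41. Of 23 runs of fibroblast and adipocyte markers, that of the growth factor receptor gene Pdgfra alone had an unadjusted p under 0.05 (4.35%, against 5.13% of all runs), with 19.7% ± 3.83 against 25.7% ± 3.54. Of 13 runs of neural and immune markers, those of the neural factors Neurog1 (8.54% ± 5.95 against 2.62% ± 2.86) and Olig2 (20.2% ± 10.0 against 5.73% ± 5.86) did (15.4%, against 5.13% of all runs). Without replicate 3 of 12 h the run of Neurog1 differed by 3.49 points instead of 5.92.

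Whether the 12 h pattern returned at the same hours of the next day was asked of 36 h against 42 h and 48 h, 9 libraries that the comparison had not used. At 22645 runs with positions measured in all 27 libraries, 829 (3.66%) had an unadjusted p under 0.05 there, 442 (1.95%) higher and 387 (1.71%) lower at 36 h, and 0 passed (0.0%, limma). Of 1151 runs with an unadjusted p under 0.05 at 12 h and a later difference, 582 (50.6%) had the same direction the next day, against 50.9% of 22624 runs overall. Among the 1151, 37 had an unadjusted p under 0.05 the next day in the same direction and 38 in the other. Among the 22624 these were 428 and 401. Pearson's correlation of the differences across those 22624 runs, given as a description, was 0.0155. Of the 20 runs named by p, 19 could be compared: 8 had the same direction and 11 the other. The difference between the days itself was tested in 1 fit over 18 libraries, where 1009 of 22645 runs (4.46%) had an unadjusted p under 0.05, 473 (2.09%) higher and 536 (2.37%) lower on the first day, and 0 passed (0.0%, smallest adjusted p 0.171).

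**Figure D5:**
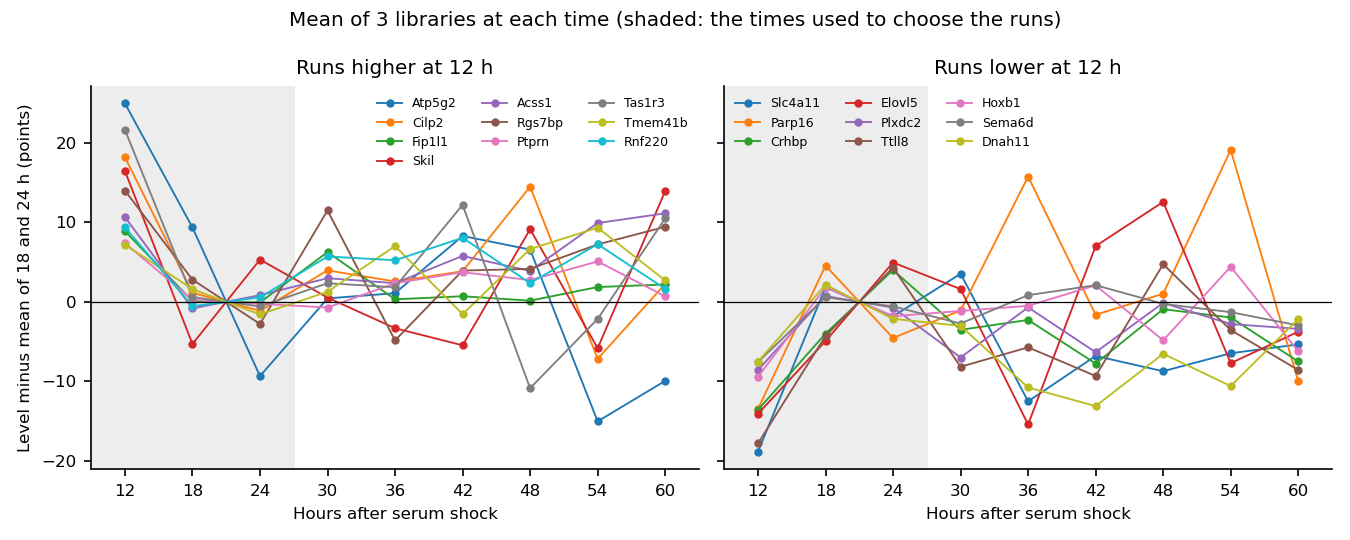
Mean level of 3 libraries at each time from 12 h to 60 h, in percentage points relative to the mean of 18 h and 24 h, over positions measured in all 27 libraries, for the runs with the 10 smallest p higher at 12 h (left) and 9 of the 10 lower at 12 h (right). The shaded times chose the runs, and the 0 line is itself made of values that chose them. Outside the shading some lines lie on both sides of 0, as for Atp5g2, Tas1r3 and Parp16. Others stay on the 12 h side at every later time: Fip1l1, Acss1 and Rnf220 above 0, and Plxdc2, Crhbp and Dnah11 below it.

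Where a run lay made a difference to its level and spread, less to its direction. Of 8840 runs that overlap a gene start window (median level 3.19%), 289 (3.27%) had an unadjusted p under 0.05, 151 higher and 138 lower at 12 h. Of 12664 within a gene but away from such a window (median 9.01%), 763 (6.02%) did, 373 higher and 390 lower, and of 1866 outside genes (median 24.0%), 146 (7.82%), 76 higher and 70 lower. The median size of a difference was 0.991, 1.71 and 2.52 points in the same order, and the median SE 1.34, 2.19 and 3.00 points.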

How the data were processed

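Methylation levels of 27 reduced representation bisulfite libraries were deposited by the authors as fractions from 0 to 1 in a single file, without read counts, per the file headers and values. Trim Galore 0.4.0, cutadapt 1.9.1, Bismark 0.14.4, Bowtie2 and the build mm10 are named in the submitters' processing notes; how levels were computed and filtered is not stated in these sources. Depth is unknown, so the planned count model was not used.

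Fractions were multiplied to percent, and autosomal positions with a value in all 9 libraries were joined into runs. Limma 3.58.1 (R 4.3.3) was fitted to run means with time as a factor and replicate number as a block. Benjamini-Hochberg adjustment was over all runs, with a threshold of 0.05. The fit was tested on simulated data, where changes of 5 or 10 points added to 200 runs of middle level were not recovered at that threshold. The simulated noise was independent between libraries and held no replicate effect. Larger changes were recovered in part, so the lack of calls does not exclude differences of these sizes at runs of middle level. Changes at runs of other levels were not simulated. For later times, run means used positions measured in all 27 libraries. Single values were tested by exact permutation of time labels within replicate number (27 arrangements). Data handling and plots used pandas 2.3.3, numpy 2.4.6 and matplotlib 3.10.9 under Python 3.11.15, and tests with scipy 1.17.1.

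A run was given to the named gene it overlapped or the nearest within 2000 bp in RefSeq's GRCm38.p6 annotation; exons are not annotated here. Named runs were the 10 smallest p in each direction, the 5 largest differences in each direction with p under 0.01, the smallest p in each of 13 gene lists, and 7 fixed genes. For the lists and fixed genes, a run counted for each listed gene within 2000 bp, also where it overlapped another gene. Comparisons, members and lists were chosen with earlier results of these data known.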

Additional observations from a re-analysis of the deposited data

How the results depend on the processing

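Under 23 alternatives, 0 runs passed for 12 h against 18 h and 24 h in all but 1: without the replicate block 1 run passed (Osgin1), and 1 also passed for 12 h against 18 h (Osgin1 again). The numbers did not pair the libraries: deviations of same-numbered libraries from their time's mean correlated between -0.0208 and 0.0292 over middle-level runs, and 4 of 9 libraries correlated best with one of their own number. The block changed no other call, but it changed the ranking of runs. The limma unadjusted p of Parp16 was 2.97e-05 with it and 0.0777 without it. Without it the p was 0.0857 for Rgs7bp, 0.0878 for Grb10, 0.0594 for Dnah11 and 0.228 for Babam1. For Fip1l1 it went the other way, from 2.07e-04 with the block to 1.52e-05 without. Runs with an unadjusted p under 0.05 numbered 2184 of 43589 with gaps of at most 50 bp, 609 of 12662 with at least 20 positions and 524 of 8705 at levels of 10% to 90%, where fewer or more runs were tested, and between 1083 and 1456 with libraries left out. Without replicate 3 of 12 h, 61.0% of them were higher at 12 h, and without replicate 2 of 12 h 43.0%, against 50.1% in all 9 libraries. The difference in library mean lay between -0.383 and 0.0849 points with libraries left out. With gaps of at most 200 bp, which join short runs into longer ones, differences shrank to 5.43 points for the run of Cilp2, 0.114 for Skil, 1.13 for Rgs7bp, 0.527 for Tmem41b, 0.314 for Dusp6, -3.56 for Slc4a11, -5.31 for Osgin1, -2.74 for Sema6d and -5.82 for Babam1. With gaps of at most 50 bp they were -6.55 for Crhbp, -5.70 for Plxdc2 and 34.8 for Tas1r3. With 1 library left out, Fos reached -0.711 points (replicate 2 of 12 h), Egr1 -0.481 (replicate 3 of 12 h), Per2 -0.839 (replicate 3 of 18 h) and Dbp -1.58 (replicate 3 of 18 h). Of the 48 named runs, Ptprn (-0.571 points) and Dnah11 (0.993) turned sign with gaps of at most 200 bp, and Per1 on the M-value scale (0.25, log2); with libraries left out the run of Per1 lay between -2.71 and 1.06 points and the run of Nr1d1 between -0.358 and 2.46, and the cause was not tested. Without read counts, values from few reads could not be set apart.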
